A study of Homo sapiens with 60 samples.

Results

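The 10 genes described here encode amino acid transporters of the plasma membrane and their close relatives: SLC7A5, SLC3A2, SLC7A11, SLC7A1, SLC1A5, SLC1A4, SLC38A1, SLC38A2, SLC43A2 and SLC43A3. They were taken by name from a table of 38342 gene names, and all 10 were found. The cells were MDA-MB-231, an established line of triple-negative breast cancer. They received the vehicle DMSO or the compound BAY2506856 at 100, 300 or 1000 nM for 1, 3, 6 or 24 h, which makes 16 groups of dose and time. Each of the 4 DMSO groups held 6 libraries and each of the 12 treated groups held 3, a total of 60. The times come from the sample labels, although the series' own design text names 24 h as the only harvest. The labels name no target of the compound.

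Amino acids enter cells through a small number of carrier families with overlapping substrates. Exchangers such as SLC7A5 and SLC1A5 swap one amino acid for another, sodium-coupled carriers such as SLC38A2 load the cell with small neutral amino acids, and facilitators such as SLC43A2 let branched-chain and aromatic amino acids pass down their gradient. Leucine and arginine that arrive this way are sensed at the lysosome by the mTORC1 kinase complex, and several of these genes are known targets of the transcription factors MYC and ATF4. SLC7A5, SLC3A2 and SLC1A5 are abundant in many tumour lines.

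Sequences upstream of the RefSeq start sites (build GRCh38.p14) of 3 members are printed because SLC7A5 and SLC7A1 had the most negative log2 changes at the highest dose and SLC43A2 had the most positive. For SLC7A5 and SLC7A1 they run up to the start, and for SLC43A2 the 60 bases nearest the start, which overlap an annotated exon, are left out. The capitals mark the E-box CACGTG, a MYC-type site, in SLC7A5 and a match to TGACNNNGC, the core of the antioxidant response element, in SLC7A1.
SLC7A5 (chr16:87869508-87869757, minus strand): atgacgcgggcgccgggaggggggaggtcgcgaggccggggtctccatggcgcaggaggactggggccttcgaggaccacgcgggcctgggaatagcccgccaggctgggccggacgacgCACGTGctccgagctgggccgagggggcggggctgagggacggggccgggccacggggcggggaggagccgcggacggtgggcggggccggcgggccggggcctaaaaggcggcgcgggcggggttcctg
SLC7A1 (chr13:29595689-29595938, minus strand): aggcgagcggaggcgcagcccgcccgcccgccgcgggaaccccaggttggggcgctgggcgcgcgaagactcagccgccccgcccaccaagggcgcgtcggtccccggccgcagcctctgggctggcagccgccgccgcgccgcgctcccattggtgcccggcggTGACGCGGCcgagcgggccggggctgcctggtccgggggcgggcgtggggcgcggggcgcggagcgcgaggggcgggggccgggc
SLC43A2 (chr17:1628895-1629084, minus strand): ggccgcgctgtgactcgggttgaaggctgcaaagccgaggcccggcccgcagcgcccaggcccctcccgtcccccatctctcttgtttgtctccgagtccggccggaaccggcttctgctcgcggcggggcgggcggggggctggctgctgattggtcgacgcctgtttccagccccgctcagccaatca
Both strands of the 250 bases before each start were searched for these motifs and for TGATGNAA, the core of the element bound by CEBP and ATF factors. Of the 10 members, 8 had an entry, with 16 windows among them. CACGTG was in 2 of the 16 windows (SLC7A5 and SLC1A5) and in 6.34% of all 35116 windows. TGACNNNGC was in 3 of 16 (SLC3A2, SLC7A1 and SLC1A5) and in 10.9% of all. TGATGNAA was in 1 of 16 (SLC1A5) and in 3.14% of all. None of the 3 was found before SLC43A2. A match describes these letters only.

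The values are FPKM, fragments per kilobase of transcript and per M reads, so levels can be set against each other across genes. Whole reads could be recovered from them, and library depth ran from 0.475 to 86.5 M reads (median 11.2 M). All 6 markers expected of this line (VIM, CD44, AXL, CAV1, MSN and EGFR) were present in every library, the lowest at 20.4 FPKM (EGFR). ESR1, PGR and FOXA1 stayed at or under 0.0432 FPKM and CDH1 at or under 1.09, whereas KRT8 (71.5 to 144 FPKM), EPCAM (4.43 to 16.3) and GATA3 (1.34 to 5.58), listed as low or absent, were present. Of markers of other cells, CD3E was at 0 in all 60 libraries, ALB reached 0.0669 FPKM, PTPRC 0.101 and COL1A1 1.40. The values split the libraries into 3 types for which the labels have no name. An index built from 11 pseudogenes was -3.00 to -1.79 in 41 libraries of the first type and 2.39 to 4.00 in 13 of the second. The mitochondrial message MT-ND6 was 56.9 to 105 FPKM in 6 DMSO libraries of the third type and at most 11.2 in the others. At 24 h the second type made up 2 of the 3 libraries at 1000 nM, 1 of 3 at 300 nM, 0 of 3 at 100 nM and 1 of 6 with DMSO. The labels do not say whether replicates came from separate cultures, and the p-values thus reflect the spread among these libraries, which may be technical. In RNA from whole cultures, fewer cells that express a gene and less RNA per cell cannot be told apart.

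The library type moved every member. Within groups, libraries of the second type read lower than the first by 0.87 (log2) for SLC7A5, 0.65 for SLC1A5, 0.50 for SLC43A2, 0.49 for SLC3A2, 0.39 for SLC7A1, 0.31 for SLC43A3 and 0.17 for SLC1A4. They read higher by 0.27 for SLC7A11, 0.21 for SLC38A2 and 0.15 for SLC38A1. The adjusted p (limma) of these 10 differences was at most 0.000168. The third type differed from the first at the threshold for SLC7A1 alone, which was lower by 0.20 (adjusted p = 0.00611). Results at 24 h are therefore given over all libraries, with terms for the library types and, where the call changes, in the first type alone, which leaves 1 library at 1000 nM that is assumed to vary like those of the other groups.

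In vehicle cells SLC7A5, the leucine exchanger LAT1, had the highest level of the 10, with a median of 70.2 FPKM over 24 DMSO libraries (32.2 to 107). SLC1A5, the glutamine exchanger ASCT2, followed at 59.6 FPKM, then SLC38A2 at 37.6, SLC3A2 at 31.0, SLC7A1 at 29.1, SLC43A3 at 20.2 and SLC38A1 at 17.4. The ranges of neighbours in this order overlapped from SLC7A5 down to SLC38A1. SLC7A11, the cystine carrier, had 4.76 FPKM (3.15 to 7.00) and lay below all values of SLC38A1. SLC1A4 had 1.94 FPKM (1.19 to 2.52) and lay below all values of SLC7A11. SLC43A2, the facilitator LAT4, was lowest with 0.732 FPKM (0.389 to 1.22), and its range just met that of SLC1A4. SLC43A2 had as few as 2 reads in a library, SLC1A4 4 and SLC7A11 21, so single libraries are imprecise for the low members.

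**Figure D1:**
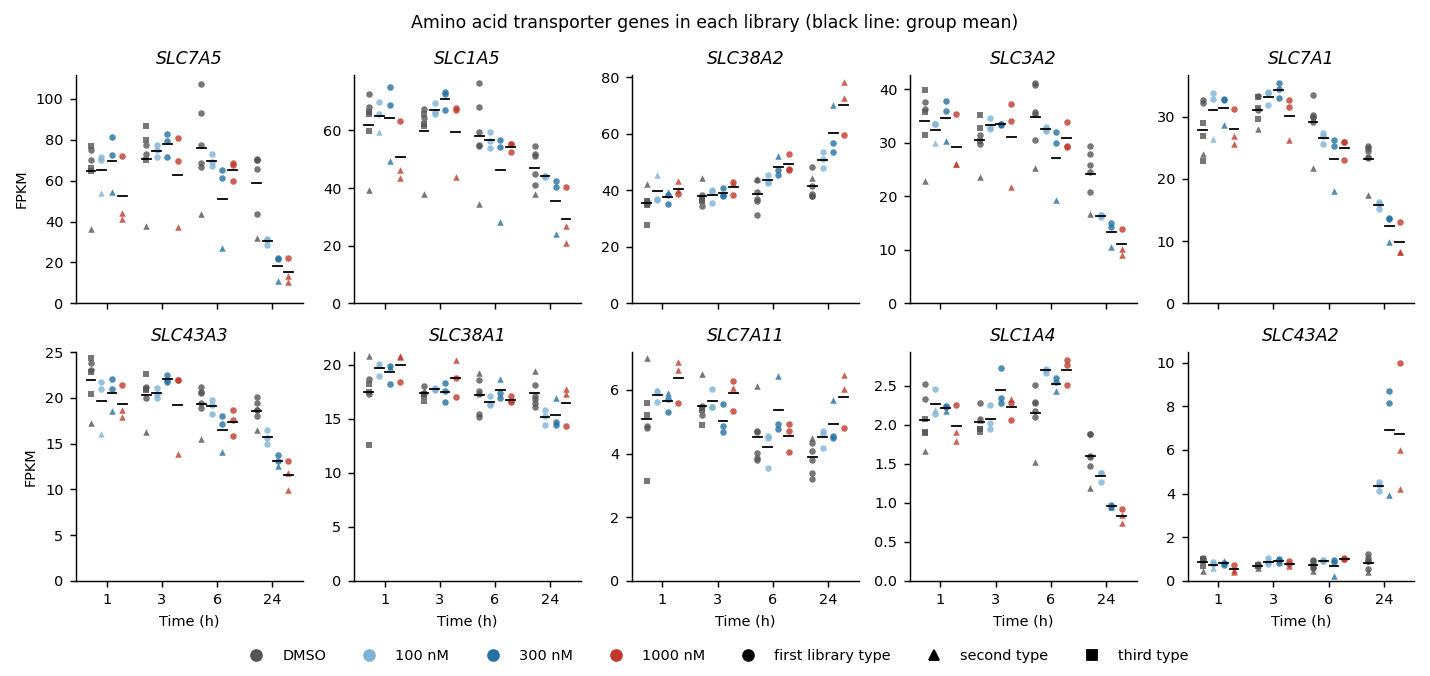
FPKM (linear axes from 0) of the 10 genes in each of 60 libraries by time, with colour for the dose, marker shape for the library type and a black line for each group mean. At 24 h all 9 treated libraries of SLC43A2 lie above the DMSO libraries and all 9 of SLC7A5 lie below them, and triangles (second type) lie low for SLC7A5 and SLC1A5 at every time.

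At 24 h with 1000 nM, 9 of the 10 members passed the test, 3 higher and 6 lower. SLC43A2 rose 5.27-fold, SLC38A2 rose 1.68-fold and SLC7A11 rose 1.43-fold. SLC7A5 fell 3.79-fold, SLC7A1 fell 2.32-fold and SLC3A2 fell 2.13-fold, with SLC1A5, SLC43A3 and SLC1A4 between 1.57- and 1.63-fold lower. These folds are on the log2(FPKM + 0.5) scale, which understates the change of low genes such as SLC43A2 and SLC1A4. The test was limma over 15866 genes at a threshold of 0.05 on the Benjamini-Hochberg adjusted p, and it called 34.7% of all genes in this comparison (19.1% higher and 15.6% lower). The median log2 change was -0.66 over the 10 members and 0.03 over all genes. In 8 members the 3 libraries at 1000 nM lay wholly above (3) or below (5) the 6 DMSO libraries, which held for 22.8% of all genes. The members were chosen with earlier results of these data known, so these contrasts with all genes are not independent evidence. The pooled RNA of a culture gives no protein level or transport rate, and neither was measured.

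SLC7A5, also named LAT1, pairs with SLC3A2. SLC7A5 is the light chain and the pore that exchanges large neutral amino acids. SLC3A2 is the heavy chain that carries its partner to the cell surface. At 24 h SLC7A5 was at 32.2 FPKM in the lowest DMSO library, 67.9 at the median and 70.7 in the highest. At 1000 nM its 3 libraries had 13.2, 22.4 and 10.3 FPKM, and at 300 nM 21.7, 11.0 and 22.0. At 100 nM they had 31.7, 30.8 and 28.7 FPKM. All 9 treated libraries were below every DMSO library, although those at 100 nM came close to the lowest, which was of the second type. The log2 change of SLC7A5 was -0.88 ± 0.28 (SE) at 100 nM (limma adjusted p = 0.0213), -1.67 ± 0.28 at 300 nM (5.46e-06) and -1.92 ± 0.28 at 1000 nM (3e-07). With terms for the library types it was -1.03, -1.53 and -1.49, so that the drop was larger at 100 nM and smaller at 1000 nM than over all libraries. The call at 100 nM was lost without any 1 of its 3 libraries, with adjusted p of 0.0601 to 0.0808.

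SLC3A2 moved with its partner. DMSO libraries at 24 h ran from 16.8 through a median of 25.2 to 29.4 FPKM. The libraries at 1000 nM had 10.2, 13.8 and 9.08 FPKM, those at 300 nM 14.3, 10.5 and 15.1, and those at 100 nM 16.5, 16.1 and 16.5, all below the DMSO range. Its log2 change was -0.52 ± 0.17 at 100 nM (adjusted p = 0.0208), -0.83 ± 0.17 at 300 nM (9.05e-05) and -1.09 ± 0.17 at 1000 nM (6.87e-07), and -0.61, -0.75 and -0.85 with type terms. As for SLC7A5, the call at 100 nM was lost without any 1 of the 3 libraries (0.0601 to 0.0766). The FPKM of SLC7A5 over that of SLC3A2 was 2.39 ± 0.34 (SD, n = 6) with DMSO at 24 h, 1.86 ± 0.10 (n = 3) at 100 nM, 1.34 ± 0.26 at 300 nM and 1.35 ± 0.25 at 1000 nM. The library type moves this ratio too. Libraries of the first type had 1.46 and 1.52 at 300 nM and 1.62 at 1000 nM. Those of the second type had 1.05 at 300 nM and 1.14 and 1.29 at 1000 nM. DMSO libraries ran from 1.92, of the second type, to 2.86. The light chain's message thus stood lower against the heavy chain's in treated cells, a description that was not tested.

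A pseudogene of SLC7A5 can share reads with it. SLC7A5P1 ranged from 0 to 16.5 FPKM over the libraries, and its log2 change at 1000 nM and 24 h was -1.84 ± 0.63 (adjusted p = 0.0195), or -1.09 (0.0617) with type terms. The sources used here do not say how reads that match both genes were assigned. SLC7A5P2 was not analysed here.

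SLC7A11 uses the same heavy chain, SLC3A2, to bring in cystine, the source of cysteine for glutathione, in exchange for glutamate. It went the other way from SLC3A2. DMSO libraries at 24 h had 3.18 to 4.50 FPKM with a median of 3.93, and the 1000 nM libraries had 6.01, 4.81 and 6.47, all higher. Its log2 change at 1000 nM was 0.52 ± 0.13 (adjusted p = 0.00173), with type terms 0.38 (0.00265), and in the first type alone 0.33 (0.0526). Changes at 300 nM (0.31 ± 0.13, adjusted p = 0.074) and at 100 nM (0.20 ± 0.13, 0.324) missed the threshold over all libraries. At 300 nM it passed with type terms (0.26, 0.0342), in the first type alone (0.25, 0.0466) and without the second-type DMSO library (0.35, 0.0469). At 100 nM it passed in the first type alone (0.24, 0.0323). The ratio of SLC7A11 to SLC3A2 was 0.169 ± 0.059 (SD, n = 6) with DMSO and 0.549 ± 0.185 (n = 3) at 1000 nM. The library type moves this ratio, and the first-type library at 1000 nM had 0.348 against 0.587 and 0.713 in those of the second type. The antisense gene SLC7A11-AS1 stayed at or under 0.110 FPKM.

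SLC7A1 is the carrier CAT1 for arginine, lysine and ornithine. At 24 h it had 17.5 to 25.3 FPKM with DMSO, with a median of 24.0. Treated libraries had 16.0, 16.2 and 15.1 FPKM at 100 nM, 13.7, 9.89 and 13.5 at 300 nM, and 8.18, 13.1 and 8.27 at 1000 nM, all under the DMSO range. Its log2 change was -0.53 ± 0.13 (adjusted p = 0.00178), -0.88 ± 0.13 (2.83e-07) and -1.21 ± 0.13 (9.02e-11) at the rising doses. With type terms these were -0.60, -0.82 and -1.02, and no library left out in turn ended the call at 1000 nM (highest adjusted p 5.03e-08).

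SLC1A5 and SLC1A4 are sodium-dependent exchangers of small neutral amino acids, and SLC1A5 is a main route for glutamine. SLC1A5 had 37.8 to 54.7 FPKM with DMSO at 24 h (median 48.1) and 26.7, 40.2 and 21.0 at 1000 nM, and the groups overlapped through the first-type library at 40.2. Its log2 change at 1000 nM was -0.71 ± 0.21 (adjusted p = 0.00664), but -0.50 (0.118) without replicate 3, -0.39 (0.00123) with type terms and -0.27 (0.0987) in the first type alone. SLC1A5 was the 1 called member at this dose whose call was lost when a library was left out in turn. At 300 nM (-0.42, 0.129) and 100 nM (-0.08, 0.849) it did not pass over all libraries, and with type terms it passed at 300 nM (-0.32, 0.00630). SLC1A4 had 1.19 to 1.88 FPKM with DMSO (median 1.59). Its libraries had 0.842, 0.918 and 0.740 FPKM at 1000 nM, and 0.976, 0.940 and 0.939 at 300 nM, all under the DMSO range, whereas those at 100 nM (1.26, 1.39 and 1.38) lay within it. The log2 change of SLC1A4 was -0.65 ± 0.10 at 1000 nM (2.64e-07), -0.52 ± 0.10 at 300 nM (1.74e-05) and -0.18 ± 0.10 at 100 nM (0.195), where it passed with type terms (-0.21, 0.0358) and with voom, a limma fit on the recovered reads (-0.36, 0.0156). With voom the drop was -0.98, -0.89 and -0.36 at the falling doses. Voom adds a small offset to the reads in place of the 0.5 added to the FPKM.

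SLC38A1 and SLC38A2 are the sodium-coupled carriers SNAT1 and SNAT2 for glutamine, alanine and other small neutral amino acids, and SLC38A2 is known to be raised when amino acids are scarce. SLC38A2 had 37.9 to 48.2 FPKM with DMSO at 24 h, with a median of 40.2. It had 47.8, 53.6 and 51.0 at 100 nM, 53.5, 70.3 and 56.7 at 300 nM, and 72.8, 59.6 and 78.5 at 1000 nM. Libraries at 300 and 1000 nM were above all DMSO libraries, and those at 100 nM overlapped at the edge. Its log2 change was 0.29 ± 0.10 (adjusted p = 0.0317), 0.53 ± 0.10 (3.84e-05) and 0.75 ± 0.10 (3.25e-08), and 0.33, 0.49 and 0.64 with type terms. The call at 100 nM was lost when replicate 2 or 3 at 100 nM, or replicate 1, 3 or 5 with DMSO, was left out (0.0554 to 0.155), and it was lost with voom (0.27, 0.0649). SLC38A1 had 16.1 to 19.4 FPKM with DMSO (median 16.9) and 17.2, 14.3 and 17.8 at 1000 nM. Its log2 change was -0.08 ± 0.09 (0.525) at 1000 nM, -0.17 ± 0.09 at 300 nM (0.127) and -0.19 ± 0.09 at 100 nM (0.125). In the first type alone SLC38A1 was lower at 300 and 100 nM (-0.21 and -0.15, adjusted p = 0.00682 and 0.0262), and the 1 library of that type at 1000 nM gave a log2 change of -0.23. At 300 nM it also passed with type terms (-0.20, 0.0147) and voom (-0.26, 0.0221). SLC38A2 over SLC38A1 was 2.39 ± 0.17 (SD, n = 6) with DMSO, 3.35 ± 0.04 (n = 3) at 100 nM, 3.91 ± 0.23 at 300 nM and 4.26 ± 0.14 at 1000 nM.

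SLC43A2 and SLC43A3 belong to a family of facilitators. SLC43A2 carries leucine, isoleucine, valine, phenylalanine and methionine, whereas SLC43A3 is known as a carrier of purine nucleobases, so it is a relative by sequence and not by substrate. SLC43A2 had 0.389 to 1.22 FPKM with DMSO at 24 h, with a median of 0.909. It had 4.40, 4.51 and 4.10 FPKM at 100 nM, 8.18, 3.94 and 8.69 at 300 nM, and 5.98, 10.0 and 4.21 at 1000 nM, so that every treated library exceeded every DMSO library. The libraries at 3.94, 5.98 and 4.21 FPKM were of the second type, and those of the first type had 4.10 to 4.51, 8.18 to 8.69 and 10.0 FPKM at the rising doses. Its log2 change was 1.90 ± 0.20 (adjusted p = 4.58e-10), 2.45 ± 0.20 (6.07e-14) and 2.40 ± 0.20 (8.65e-14), and with type terms 1.81, 2.53 and 2.65. SLC43A3 had 16.5 to 20.1 FPKM with DMSO (median 18.7) and 11.7, 13.1 and 9.88 at 1000 nM, all lower. Its log2 change was -0.66 ± 0.11 at 1000 nM (4.46e-06), -0.49 ± 0.11 at 300 nM (0.000608) and -0.23 ± 0.11 at 100 nM (0.148), where it passed with type terms (-0.29, 0.000291) and voom (-0.31, 0.0183). SLC43A2 over SLC43A3 went from 0.0445 ± 0.0163 (SD, n = 6) with DMSO to 0.566 ± 0.177 (n = 3) at 1000 nM.

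At the end of treatment the order of levels differed from that of the vehicle. With 1000 nM at 24 h SLC38A2 stood first at 70.3 ± 9.70 FPKM (SD, n = 3), then SLC1A5 at 29.3 ± 9.87, SLC38A1 at 16.4 ± 1.84 and SLC7A5 at 15.3 ± 6.31. SLC43A2, lowest of the 10 in vehicle cells, reached 6.73 ± 2.97 FPKM, next to SLC7A11 at 5.77 ± 0.857, and SLC1A4 was lowest at 0.834 ± 0.0893. SLC38A2 lay above all libraries of SLC1A5, and SLC1A5 above all of SLC38A1, whereas SLC38A1 overlapped with SLC7A5 and SLC43A2 with SLC7A11. The means hold 2 libraries of the second type, and in the first-type library SLC7A5 (22.4 FPKM) was above SLC38A1 (14.3) and SLC43A2 (10.0) above SLC7A11 (4.81).

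**Figure D2:**
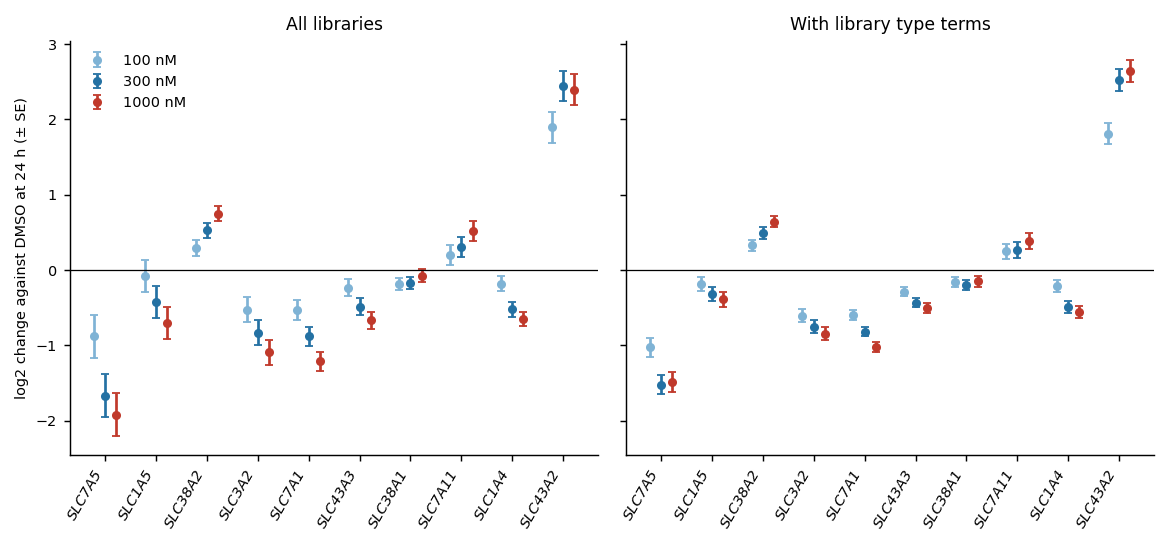
log2 change against DMSO at 24 h (limma estimate ± SE) of the 10 genes at 100, 300 and 1000 nM, over all 60 libraries (left) and with terms for the library types (right). SLC43A2 lies at 1.90 to 2.45 on the left and 1.81 to 2.65 on the right, and SLC7A5 at 1000 nM moves from -1.92 to -1.49.

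The 3 doses share the DMSO libraries, so dose was also compared among treated cells at 24 h. At 300 nM, 7 members passed against DMSO (2 higher and 5 lower, against 30.7% of all genes), and at 100 nM 5 passed (2 higher and 3 lower, against 19.7%). Between 1000 and 100 nM, 4 members differed (4.94% of all genes): SLC7A1 was lower at 1000 nM (log2 change -0.68 ± 0.15, limma adjusted p = 0.00248), as were SLC1A4 (-0.47 ± 0.11, 0.00557) and SLC43A3 (-0.43 ± 0.13, 0.0412), and SLC38A2 was higher (0.46 ± 0.12, 0.0119). Without replicate 2 at 1000 nM, the first-type library, 7 members passed, without replicate 1 or replicate 3 only 1 did, and without 100 nM replicate 1 there were 2. Leaving out replicate 2 left only second-type libraries at 1000 nM, against 0 of 3 at 100 nM. The shares of all genes called in these fits are not given here, so these counts are not a result particular to the members. Over all libraries SLC7A5 (-1.04 ± 0.33, 0.0523) and SLC43A2 (0.50 ± 0.23, 0.206) missed the threshold between these doses and passed with type terms (-0.46, 0.0459, and 0.83, 0.000837). The calls for SLC43A3 and SLC38A2 between these doses were lost with voom (-0.40, 0.0596, and 0.40, 0.0559), and that for SLC43A3 with type terms (-0.22, 0.0578). In a fit of only the groups compared, 0 members and 3 genes in all passed, so all 4 calls were lost.

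Between 300 and 100 nM, 0 members passed (1.17% of all genes) and 2 passed with voom on the recovered reads. An unadjusted p under 0.05 was found for 5 members and for 1244 of all 15866 genes. With type terms SLC43A2 was higher at 300 nM by 0.71 (adjusted p = 0.00603) and SLC7A5 lower (-0.50, 0.0365). Between 1000 and 300 nM, 0 members passed (0.0126% of all genes) and 0 passed with voom. There 1 member (SLC7A1, -0.33 ± 0.15) had an unadjusted p under 0.05, as had 852 of all genes. SLC43A2 differed there by -0.05 ± 0.23 and SLC7A5 by -0.25 ± 0.33, or by 0.12 and 0.04 with type terms. No step between 1000 and 300 nM was detected in these fits. With array weights, however, 9 members and 47.5% of all genes passed between these 2 doses. Type terms gave 0 members and 0.0504% of all genes there. The second type made up 2 of 3 libraries at 1000 nM and 1 of 3 at 300 nM.

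At 1 h, 0 of 10 members passed with limma at any dose, and 0% of all genes did, so the members' count equals that of all genes. With array weights, which give libraries unequal weight, 8 members and 40.2% of all genes passed at 1000 nM and 1 h. An unadjusted p under 0.05 was found for 3 members at 1000 nM (SLC7A11, SLC38A1 and SLC38A2), 0 at 300 nM and 1 at 100 nM. Among all 15866 genes it was found for 1637, 192 and 809 at these doses. Voom called 0 members. At 3 h, 0 members passed at 1000 nM (0.132% of all genes), 300 nM (0.126%) or 100 nM (0.0693%). Array weights called 1, 2 and 0 members at 3 h, and 24.0%, 19.3% and 23.3% of all genes. At that time 0, 1 and 0 members had an unadjusted p under 0.05, as had 1176, 933 and 933 of all genes, and voom called 0 members. Libraries of the second type were unequal at these times too, with 2 of 3 at 1000 nM and 1 h. The third type made up 3 of the 6 DMSO libraries at 1 h and 3 of the 6 at 3 h. No treated library was of the third type.

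At 6 h SLC38A2 was the first member to pass. Its DMSO libraries had 31.1 to 44.1 FPKM (median 38.2), and the 1000 nM libraries had 52.7, 47.5 and 47.2, all higher. The log2 change of SLC38A2 was 0.35 ± 0.10 (limma adjusted p = 0.0494), where 2.01% of all genes passed. The call sat at the threshold: it was lost without any 1 of the 1000 nM libraries (adjusted p = 0.128 to 0.386) and without DMSO replicate 1, 2, 3 or 4 (0.0611 to 0.153). It passed with type terms (0.39, 0.000427), in the first type alone (0.39, 0.00118) and with voom (0.37, 0.0356), and was lost with a pseudocount of 0.1 (0.0503), no filter (0.0667), median-of-ratios scaling (0.0666) and a fit of only the groups compared (0.303). SLC43A2 (0.992, 1.03 and 1.00 FPKM against 0.442 to 0.933) and SLC1A4 (2.76, 2.83 and 2.51 against 1.53 to 2.50) also lay above all DMSO libraries at 1000 nM and 6 h, as 7.39% of all genes did in either direction. Neither passed the test (0.33 ± 0.20, adjusted p = 0.857, and 0.28 ± 0.10, 0.149). With type terms SLC1A4 was higher (0.25, 0.0463), and SLC7A1 (-0.27, 0.00448) and SLC43A3 (-0.20, 0.0475) were lower at 6 h. At 300 nM 0 members passed (1.67% of all genes) and 6 had an unadjusted p under 0.05, as had 1564 of all 15866 genes. At 100 nM 0 passed (0.863%) and 1 (SLC1A4) had an unadjusted p under 0.05, as had 818 of all genes. Voom called 0 members at both doses. SLC38A2 passed at 300 nM and 6 h without DMSO replicate 5 (0.37, 0.0416). With type terms 4 members passed at that dose (4.68% of all genes). SLC38A2 was higher (0.29, 0.0128), and SLC7A5 (-0.47, 0.0150), SLC3A2 (-0.29, 0.0364) and SLC7A1 (-0.26, 0.00716) were lower. In the first type alone 3 passed (4.83% of all genes), SLC38A2, SLC7A1 and SLC43A3.

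Whether the effect of 1000 nM differed between 6 and 24 h was tested directly. It did for 7 members, against 15.1% of all genes, and with type terms for 6, against 27.4%. At 1000 nM the second type made up 0 of 3 libraries at 6 h and 2 of 3 at 24 h. The sizes over all libraries thus include differences of library type, which moved members in either direction. The log2 change rose from 0.33 to 2.40 for SLC43A2 (difference 2.06 ± 0.29, limma adjusted p = 3.39e-07). It went from -0.17 to -1.92 for SLC7A5 (-1.76 ± 0.40, 0.00126), from -0.20 to -1.21 for SLC7A1 (-1.01 ± 0.18, 4.67e-05) and from -0.16 to -1.09 for SLC3A2 (-0.94 ± 0.24, 0.00393). SLC1A4 turned from 0.28, which had not passed, to -0.65 (-0.93 ± 0.13, 7.87e-07). For SLC43A3 (-0.51 ± 0.16, 0.0204) and SLC38A2 (0.40 ± 0.14, 0.0493) the call was less firm: that of SLC43A3 was lost without 1000 nM replicate 3 at 6 h (0.0732) or at 24 h (0.114), and that of SLC38A2 with type terms (0.26, 0.0765), voom (0.29, 0.224) and 12 of 18 libraries left out in turn. SLC7A11 (0.50 ± 0.19, 0.0666), SLC1A5 (-0.66 ± 0.30, 0.143) and SLC38A1 (-0.04 ± 0.12, 0.865) did not pass. SLC7A11 passed when 1000 nM replicate 2 at 24 h, DMSO replicate 1 or 4 at 6 h or DMSO replicate 2 at 24 h was left out (0.0259 to 0.0485), and SLC1A5 passed without 1000 nM replicate 2 at 24 h (-0.91, 0.0335).

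**Figure D3:**
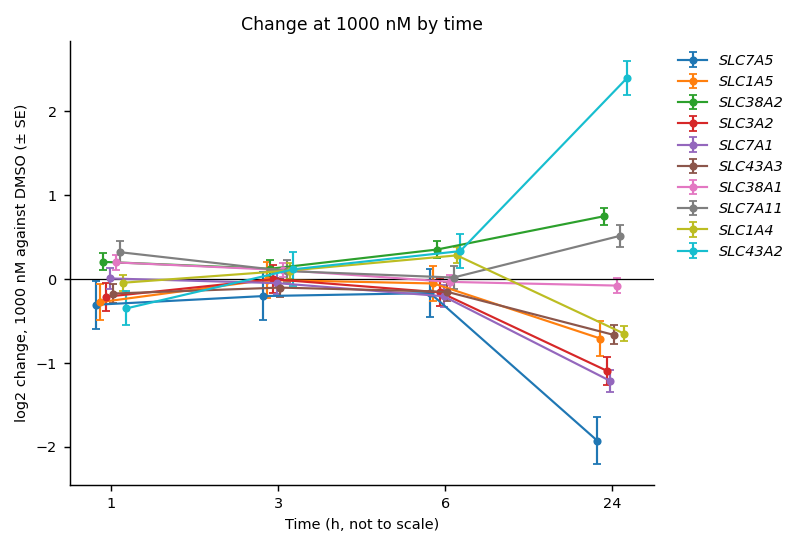
log2 change at 1000 nM against the DMSO libraries of the same time (limma estimate ± SE, all libraries) for the 10 genes at 1, 3, 6 and 24 h, with times equally spaced. No gene passes at 1 or 3 h, SLC38A2 passes at 6 h with 0.35, and at 24 h the genes spread from -1.92 (SLC7A5) to 2.40 (SLC43A2).

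Vehicle cells changed as well. From 6 to 24 h with DMSO, 3 members fell, against 9.34% of all genes in either direction and 4.38% lower. SLC3A2 fell by 0.52 (log2) ± 0.14 (limma adjusted p = 0.00945), SLC1A4 by 0.33 ± 0.08 (0.00303) and SLC7A1 by 0.32 ± 0.11 (0.0449). All 3 calls were lost in a fit of only the groups compared (0.113 to 0.186). The call for SLC7A1 was lost without any 1 of DMSO replicates 1, 2, 3, 4 or 6 at 6 h or 1, 2 or 4 at 24 h, and that of SLC3A2 without DMSO replicate 2 at 24 h (-0.42, 0.0526). With type terms SLC7A5 (-0.37, 0.00501) and SLC1A5 (-0.27, 0.00836) fell too. The vehicle level of SLC3A2, for example, was 34.8 ± 6.13 FPKM at 6 h (SD, n = 6) and 24.2 ± 4.69 at 24 h. SLC43A2 changed by 0.12 ± 0.17 (0.715) in vehicle cells.

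Over all libraries, without type terms, the other amino acid transporters were called about as often as all genes. Of 43 listed, 38 were in the table and 18 passed the filter on low values. At 1000 nM and 24 h, 3 rose and 3 fell (median log2 change 0.06), where 19.1% of all genes rose and 15.6% fell. The arginine carrier SLC7A2 fell by 1.56 ± 0.12 (adjusted p = 1.74e-15), from 3.48 ± 0.870 (SD, n = 6) to 0.838 ± 0.212 FPKM (n = 3). SLC1A3, a glutamate carrier, fell by 0.92 ± 0.13 (4.55e-08) and SLC7A6, which also pairs with SLC3A2, by 0.81 ± 0.11 (1.16e-07). SLC1A1, another glutamate carrier, rose by 0.44 ± 0.16 (0.0309), which missed the threshold in the first type alone (0.49, 0.0575). With type terms 8 of the 18 were higher, a larger share than the 27.0% of all genes that were higher. There 3 of the 18 were lower, against 20.5% of all genes.

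Genes of the ATF4 response, which cells raise when amino acids run short, were more often lower than higher. Of 20 tested (25 listed), 1 rose and 7 fell, and the list's median was -0.24. With type terms 2 rose and 9 fell, and the median turned to 0.05. PSAT1, an enzyme of serine synthesis, fell from 35.1 ± 4.39 (SD, n = 6) to 12.7 ± 1.70 FPKM (n = 3), a log2 change of -1.43 ± 0.09 (limma adjusted p = 4.59e-19). MTHFD2 (-1.17 ± 0.11, 8.09e-13) and SHMT2 (-0.85 ± 0.17, 9.38e-05), enzymes of mitochondrial one-carbon metabolism, also fell. The lipoprotein receptor gene VLDLR was the 1 that rose (0.83 ± 0.10, 6.26e-09).

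Of 17 tested enzymes that use amino acids or make glutathione (22 listed), 5 rose and 6 fell (median 0.00). ODC1, which makes putrescine from ornithine, a substrate of SLC7A1, fell by 1.18 ± 0.07 (adjusted p = 8.84e-20). GGCT, of the glutathione cycle, fell by 1.22 ± 0.16 (1.25e-08) and the aspartate aminotransferase GOT1 by 0.68 ± 0.11 (8.53e-07). SAT1, which starts polyamine breakdown, rose by 0.74 ± 0.11 (3.73e-07).

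Of 36 tested genes of amino acid sensing by mTORC1 (39 listed), 10 rose and 3 fell (median 0.13). With type terms 18 rose and 6 fell (median 0.28). TFEB, the lysosomal transcription factor that mTORC1 restrains, rose by 1.01 ± 0.28 (adjusted p = 0.00374), and the Rag GTPase gene RRAGC by 0.68 ± 0.10 (3.76e-07). C7orf60, which encodes the methionine-pathway sensor SAMTOR, rose by 0.70 ± 0.17 (0.00111), a call lost in the first type alone (0.36, 0.169). SEH1L, a subunit of the GATOR2 complex, fell by 0.73 ± 0.10 (2.54e-08). All 4 lists are to be read against the 34.7% of genes called in this comparison, and their counts with type terms against 47.5%.

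Among known regulators, MYC was lower at 3 h (-0.67 ± 0.10, limma adjusted p = 8.52e-05), 6 h (-0.85 ± 0.10, 5e-08) and 24 h (-0.81 ± 0.10, 7.01e-09) at 1000 nM. No member passed at 3 h, when 0.132% of all genes did at 1000 nM, and an order of MYC and the members was not tested. ATF4 (-0.31 ± 0.14, 0.076) and NFE2L2 (0.20 ± 0.10, 0.131) did not pass at 24 h, although ATF4 passed with type terms (-0.17, 0.043) and voom (-0.37, 0.0399). These are messages, and the proteins were not measured.

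**Figure D4:**
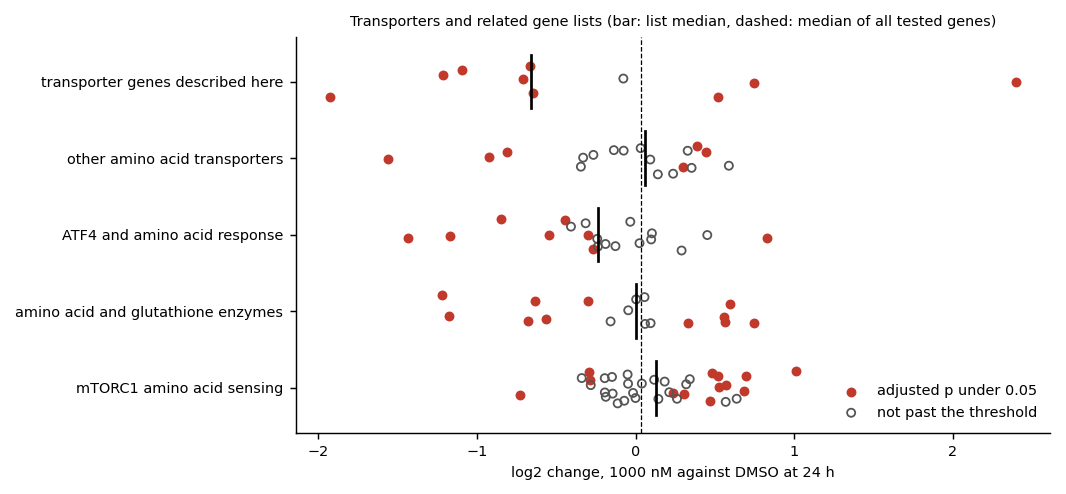
log2 change at 1000 nM against DMSO at 24 h for the 10 genes and for the tested members of 4 related lists, with filled points for adjusted p under 0.05, a bar for each list's median and a dashed line at the median of all tested genes (0.03). The 10 genes spread from -1.92 to 2.40 around a median of -0.66, and the other transporters lie around 0.06. The 10 genes and the lists were chosen with earlier results of these data known, so this contrast is a description.

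Across the 16 group means, Pearson's r was 0.98 between SLC7A5 and SLC3A2, 0.97 between SLC7A5 and SLC7A1, and -0.92 between SLC43A2 and SLC7A5. SLC7A11 had r between -0.10 and 0.62 with the other 9 members. The means share the depth, the mix of library types and the late time points, so the values are descriptions. Of 8235 tested genes with a mean of at least 5 FPKM, FZD1 (r = 0.996), NDRG1 (0.992) and KRT19 (0.990) were most like SLC43A2. CFAP20, PTPRF and RCC1 were most like SLC7A5 (0.988 to 0.991), and XPO6, PTPRF and TOP3A most like SLC3A2 (0.991 to 0.994). For SLC38A2 they were AIDA, SOCS6 and RCAN3 (0.981 to 0.984).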

How the data were processed

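Poly(A) RNA of 60 MDA-MB-231 libraries was sequenced as stranded single reads, per the labels' protocols. The submitters' processing notes name STAR 2.4.2a, featureCounts 1.4.6-p2 of Subread, DESeq2 and the build hg19, without their roles. No source used here names the gene annotation. The authors deposited log2 values of FPKM plus 1 for 38342 gene names, which were converted back to FPKM. No coordinates are given for hg19. Promoter sequences are those of RefSeq on GRCh38.p14, and printed windows hold no annotated exon.

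Of the genes, 15866 reached 1 FPKM in 3 or more libraries and were tested with limma 3.58.1 in R 4.3.3 on log2(FPKM + 0.5), with 16 group means over all 60 libraries, 44 residual degrees of freedom, a variance trend and robust variances. P-values were Benjamini-Hochberg adjusted over all genes within each of 17 comparisons. Whole reads were recovered from the FPKM steps, to within 0.01 read for 1304094 nonzero values (100%), and voom was run on these reads as an alternative. The scripts were tested on simulated data.

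The members and gene lists were chosen with earlier results of these data known, so their counts are not independent evidence. All members are named, with up to 4 called genes per list by size of change at 1000 nM and 24 h, 4 regulators, and the 3 genes most like each of 5 members, of which those for SLC7A11 are not reported here. Other settings were 2 pseudocounts, no filter, median-of-ratios scaling, only the groups compared, array weights, type terms, the first type only, no libraries under 2 M reads, voom, and each library left out in turn.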

Additional observations from a re-analysis of the deposited data

Results flagged for a closer look

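Each of 10 genes was tested in the 6 DMSO libraries of each of 4 times, which makes 40 sets. In 6 of the 40 sets 1 library stood apart from the other 5 (Dixon's test, which flags about 1 set in 20 by chance). The 10 genes share the same libraries, so the sets are not independent and the 6 cannot be held against that rate. These were the lowest libraries of SLC7A5 at 1 h (36.4 FPKM) and 3 h (37.6), of SLC7A1 at 6 h (21.7) and 24 h (17.5) and of SLC1A5 at 3 h (38.0), and the highest of SLC38A2 at 3 h (44.2). All 6 values came from libraries of the second type. The values of SLC7A5, SLC1A5 and SLC38A2 at 3 h came from 1 library, DMSO replicate 6.

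Over all libraries, without type terms, the effect of 1000 nM differed between 6 and 24 h, by an interaction term in limma, for SLC43A2 (2.06, log2), SLC7A5 (-1.76), SLC7A1 (-1.01), SLC3A2 (-0.94), SLC1A4 (-0.93), SLC43A3 (-0.51) and SLC38A2 (0.40). These sizes include differences of library type between the 2 times.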

How the results depend on the processing

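The 9 members called at 1000 nM and 24 h kept their direction under every setting, and 9 were called in each setting except the first type alone, where 7 of them held, SLC7A11 and SLC1A5 were lost and SLC38A1 was gained (8 in all, with 1 library at 1000 nM), and without replicate 3 at 1000 nM, which lost SLC1A5. The share of all genes called at 1000 nM and 24 h was not constant. It was 34.7% over all libraries, 18.8% with only the groups compared and 54.9% with array weights. Other counts of members called moved. At 1000 nM and 6 h the count was 1 (2.01% of all genes). It became 0 with a pseudocount of 0.1 (308 of 15866 genes), no filter, median-of-ratios scaling or only the groups compared (0.737% in the last). It became 2 with voom, 4 with type terms (4.65%) and 3 in the first type (7.7%). The shares of all genes with no filter, median-of-ratios scaling and voom are not given here. Only the groups compared gave 2 at 100 nM and 24 h (12.4% of all genes). It gave 0 for 1000 against 100 nM (0.0189%) and 0 for DMSO over time (2.33%). Type terms gave 4 at 300 nM and 6 h (4.68%), 2 for 300 against 100 nM (4.04%) and 5 for DMSO over time (26.2%). The first type gave 3 at 300 nM (4.83%) and 1 at 100 nM (3.37%) at 6 h, and 9 at 100 nM and 24 h (35.7%). It gave 4 for 300 against 100 nM (5.34%) and 5 for DMSO over time (26.8%). For 300 against 100 nM, voom gave 2 and leaving out libraries under 2 M reads gave 1, with shares of all genes not given here. Array weights gave 8 at 1000 nM and 1 h (40.2% of all genes), and at 3 h 1 at 1000 nM (24.0%) and 2 at 300 nM (19.3%). They gave 6, 5 and 3 at the falling doses at 6 h (13.6%, 13.3% and 7.42%), and 9 at 100 nM and 24 h (40.3%). They gave 9 for 1000 against 300 nM (47.5%) and 5 for 300 against 100 nM (14.2%). For 1000 against 100 nM they gave 9 (44.3%), and for DMSO over time 5 (22.0%). The cause was not tested.

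With each library left out in turn, the count ranged from 8 to 9 at 1000 nM and 24 h, 0 to 1 at 1000 nM and at 300 nM at 6 h, 2 to 5 at 100 nM and 24 h, 1 to 7 for 1000 against 100 nM, and 1 to 3 for DMSO over time. The shares of all genes called in these fits are not given here, so the ranges are not a result particular to the members. At 1000 nM and 6 h SLC7A11 ranged from -0.035 to 0.10 and SLC1A5 from -0.19 to 0.036 (log2), which spans 0. SLC38A1 at 1000 nM and 24 h ranged from -0.13 to 0.016, and was 0.030 with array weights. Over all comparisons, a library left out ended the call of a member 52 times and brought a call 10 times. At 1000 nM and 6 or 24 h the direction turned 8 times, each for a value that had not passed.

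Over all genes, array weights called 6380 at 1000 nM and 1 h against 0, and 3803 against 21 at 3 h. Type terms called 738 against 319 at 6 h. Only the groups compared called 2987 against 5506 at 24 h. With voom the split at 300 nM and 24 h was 2508 higher and 3747 lower, against 2617 and 2247.

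No paired analysis was possible because replicates carry no number in the labels that is shared between groups. Low members are limited by depth, with as few as 2 reads for SLC43A2.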
